A study of Mus musculus with 72 samples.

Results

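The genes described here encode the calcium channels, sodium channels, hyperpolarization-activated (HCN) channels and transient receptor potential (TRP) channels of Pet1 neurons, the serotonergic lineage of the mouse dorsal raphe (DR). Members were taken by symbol from the 10X table: every gene whose name begins with Cacn, with Scn, Hcn or Trpc, Trpm or Trpv and a number, and that had a unique molecular identifier (UMI, 1 counted RNA molecule) in at least 10 cells. This gave 53 of the 17231 genes in the table, from 54 symbols that matched. Cacna1f, with a UMI in 9 cells, stood just outside the limit, and Scn4b, with a UMI in 10 cells, just inside it. The symbol rule also takes Trpc4ap, which encodes a TRPC4-associated protein and not a channel. It is counted among the members.

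Serotonergic neurons of the DR are known for slow, regular firing with broad action potentials. Sodium channel pores (Scn) carry the upstroke of the action potential, and their beta subunits set its speed and the place of the channel in the membrane. High-voltage calcium channels open during the action potential and drive transmitter release, whereas the low-voltage T-type pores (Cacna1g, Cacna1h and Cacna1i) open near rest and favour burst firing. Alpha2delta and beta subunits bring calcium pores to the membrane, and most of the gamma family (Cacng) in fact escort AMPA-type glutamate receptors. HCN channels pass an inward current upon hyperpolarization and are regulated by cyclic AMP, and TRP channels are cation channels opened by lipids, calcium, heat or oxidants, among them the TRPC channels downstream of receptors coupled to phospholipase C.

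The data came from a 10X experiment and a manual one. For the 10X experiment, EGFP-labelled cells were sorted from the full DR of Pet1::Flpe+/-; hM3Dq+/+ mice (mean age 65.5 days) and of En1::cre+/-;Pet1::Flpe+/-;RC::FrePe+/- mice (mean age 59 days). All carried the Pet1-driven Flpe recombinase, tissue of several mice was pooled, and without Cre the first genotype expresses EGFP but not the hM3Dq receptor. In the second genotype EGFP marks only Pet1 neurons with a history of En1-driven Cre. For the manual experiment, single fluorescent cells were picked by hand from microdissected subdomains of mice that carried Pet1::Flpe+/-, the dual-recombinase reporter RC::FrePe+/- and 1 of 4 Cre drivers: Sert::cre+/- (dorsolateral, dorsomedial, ventromedial and caudal DR with 10, 9, 8 and 6 cells), P2ry1::cre+/- (caudal, 10 cells), Npy2r::cre+/- (caudal, 10 cells; rostral, 9 cells) and Crh::cre+/- (rostral, 8 cells). The Sert cells came from mice of 63 or 90 days (the caudal ones all of 63), P2ry1 cells from 62 to 74 days, Npy2r cells from 77 or 87 days and Crh cells from 83 or 119 days, so that driver and age cannot be told apart in contrasts between drivers.

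The 10X table held 2350 cells with 12320 to 134079 UMIs each, and 70 manually sorted cells were deposited with 756872 to 7664103 reads each. The 10X columns carry no run or animal, so the table is 1 sample. Their barcodes fall into 2 unnamed sets (869 and 1481 cells, 0 barcodes shared), which are used below only as a split. The manual samples are single cells with no animal named, so each group is taken as 1 sample as well, although cells of different ages within a group came from different mice. No test between groups was therefore made. Levels are in CPM (the UMIs or reads of a gene scaled to the total of the class or cell), intervals are exact and at 95% and cover counting error only, and a member is called higher or lower where a ratio reached 2-fold. Each count of such members is set beside the share of all genes that reached the same fold. UMIs from 3′ ends do not scale with transcript length, so 10X levels are compared between genes; manual reads do, so those are compared within a gene only.

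The 10X cells were put into 6 classes from their UMIs of Met, Tph2 (the enzyme of serotonin synthesis), Gad2 (GABA synthesis) and Slc17a8 (the vesicular glutamate transporter VGLUT3). Met cells (93) had at least 3 Met UMIs, and Tph2-low cells (131) were the rest with under 500 CPM of Tph2. The others were Gad2 cells (872), Slc17a8 cells (684), cells with both (256) and cells with neither (314), at a limit of 3 UMIs. The classes are ranges and not types, with 190, 161 and 21 cells at 2 or 3 UMIs of Gad2, Slc17a8 and Met, and 17 cells within 400 to 600 CPM of Tph2. By the limit of 3 UMIs, 91 of the 93 Met cells and 121 of the 131 Tph2-low cells were also Slc17a8-positive. Median UMIs per cell were 62061 in Gad2, 63265.5 in Slc17a8, 64277 in both, 51409.5 in neither, 46273 in Met and 27329 in Tph2-low cells. The 8 serotonin neuron markers summed to between 9302 and 10294 CPM in the first 4 classes, to 5738 CPM in Met cells and to 1899 CPM in Tph2-low cells, none of them at 0. Fev, Slc6a4, Slc18a2 and Ddc were lowest in Tph2-low cells, as was Tph2, which sets that class. There En1 was at 333, Gata3 at 177 and Lmx1b at 59.6 CPM, against 293, 205 and 61.7 CPM in Slc17a8 cells. Astrocyte markers (4 of 5 in the table) summed to between 0.90 and 3.66 CPM, microglial markers (5 of 5) to between 0.23 and 5.06 CPM and vessel markers (4 of 4) to between 0.27 and 5.07 CPM, with Gfap, Slc1a3, Cx3cr1, C1qa, Cldn5 and Pecam1 among those at 0 in Tph2-low cells. No empty droplets or cells of another type were at hand, and the part of free RNA in low levels was not tested.

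Across all 10X cells the members differed widely in level. Of the 53 members, 37 were at 10 CPM or more, 12 at 100 CPM or more and 9 under 1 CPM. Cacna2d1, the alpha2delta subunit bound by gabapentin, stood highest at 362 CPM (interval 358 to 365). Scn2a1, the older symbol for the sodium pore Scn2a, followed with 309.6 CPM (307 to 313) and was detected in all 2350 cells. Cacna1a, the P/Q-type calcium pore, came next at 199 CPM (197 to 201). The neighbouring intervals of these top 3 do not overlap, so their order is beyond counting error.

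Each family had a broad and a sparse end. Among high-voltage calcium pores, Cacna1e (R-type) was at 141 CPM and Cacna1b (N-type) at 109 CPM, whereas the L-type pores Cacna1c and Cacna1d lay between 14.3 and 17.2 CPM and the muscle pore Cacna1s at 0.08 CPM. The T-type pores were lower, with Cacna1i at 12.6, Cacna1h at 11.1 and Cacna1g at 3.52 CPM. Of the auxiliary calcium subunits, Cacna2d2 was at 71.0 and Cacna2d3 at 12.1 CPM, and the beta subunits Cacnb4, Cacnb3 and Cacnb2 at 96.5, 71.0 and 36.9 CPM. In the gamma family, Cacng2 (stargazin) was at 167, Cacng3 at 94.1 and Cacng4 at 37.3 CPM. Sodium pores were led by Scn2a1, Scn9a (159.7 CPM) and Scn3a (129 CPM), and sodium beta subunits by Scn2b (176 CPM) and Scn3b (119.9 CPM), while Scn4b was at 0.10 CPM.

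Of the HCN genes, Hcn3 was at 33.9 CPM (32.9 to 34.9) and Hcn2 at 23.1 CPM (22.3 to 23.9), a difference beyond counting error. Hcn4 was at 1.34 CPM (1.15 to 1.55), with a UMI in 7.40% of cells. Among TRP channels, Trpm7 (a channel fused to a kinase) was at 37.7, Trpc1 at 31.8, Trpv2 at 29.3, Trpm4 (opened by calcium) at 23.2 and Trpc7 (opened by diacylglycerol) at 18.6 CPM. Trpm2, Trpc5 and Trpm3 lay between 3.12 and 8.00 CPM, and Trpv3 and Trpv4 were at 0.39 and 0.18 CPM. Trpc4ap, the adaptor, stood at 112 CPM, above every TRP channel.

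**Figure D1:**
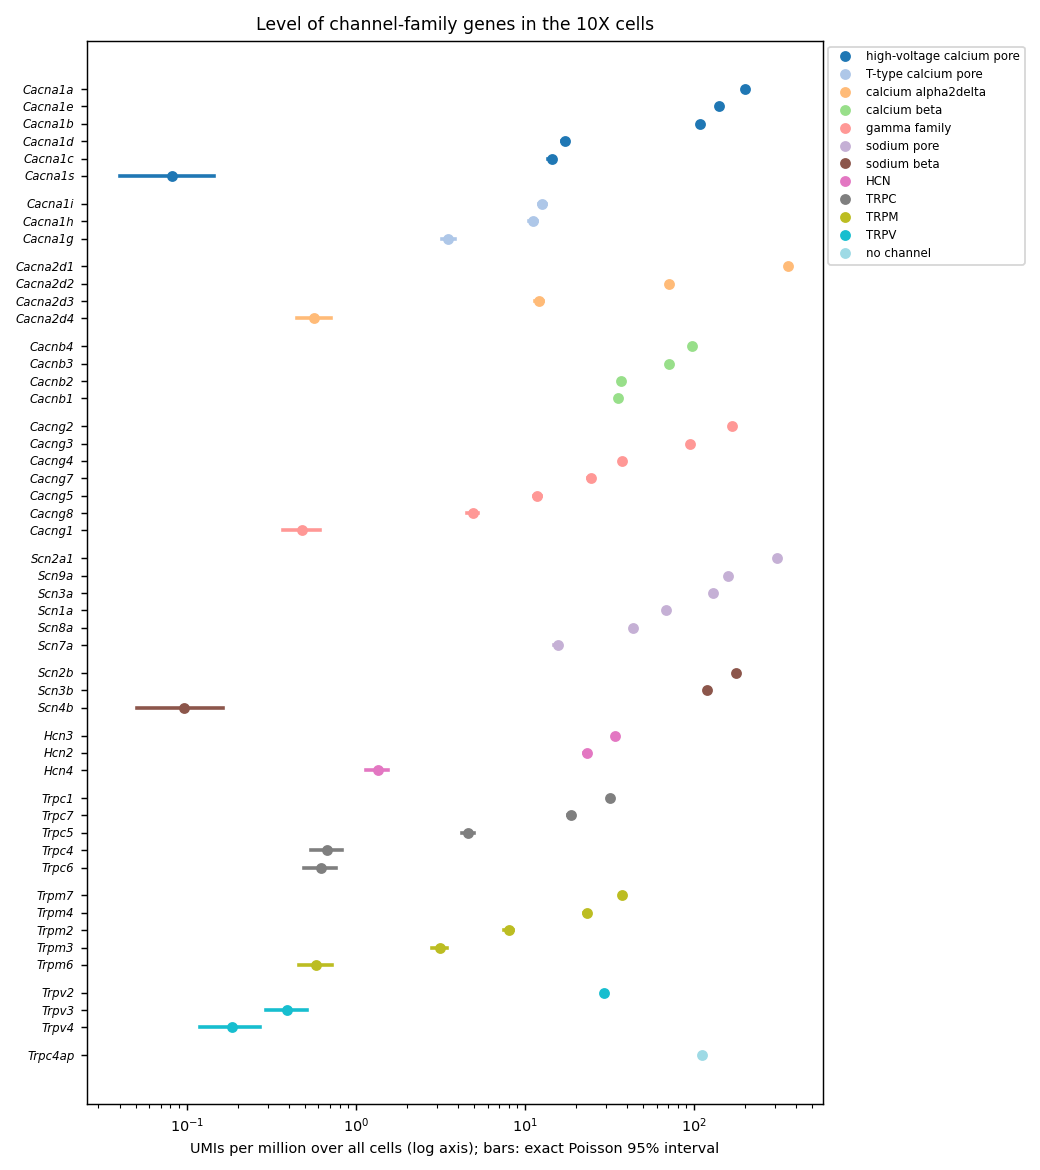
Level of members over all 2350 10X cells, in CPM of UMIs on a log axis, ordered by family. Points are pooled levels and bars exact Poisson 95% intervals. Cacna2d1 at 362 and Scn2a1 at 309.6 CPM lie farthest right, and Cacna1s and Scn4b, at 0.08 and 0.10 CPM, farthest left.

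The first comparison asked which channels differ between the Gad2 and the Slc17a8 cells, the largest classes of the table. Few did. Of 44 members with at least 100 UMIs in both classes together, 5 were at least 2-fold higher in Slc17a8 cells, beside 2.95% of all genes, and 2 were at least 2-fold lower, beside 3.02% of all genes. As shares of the members these are 11.4% and 4.55%, and the median log2 ratio of the members (-0.01) equalled that of all genes (-0.01). All 7 kept their direction in each barcode set.

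The gamma and alpha2delta subunits led. Cacng5, a gamma subunit that modifies AMPA receptors, was at 23.8 CPM (22.3 to 25.3) in Slc17a8 cells and at 2.14 CPM (1.77 to 2.57) in Gad2 cells, a log2 ratio of 3.47 (3.19 to 3.77), or 11.1-fold. In barcode sets 1 and 2 its log2 ratio was 3.54 and 3.44. Cacna2d3, an alpha2delta subunit, was at 22.8 against 4.22 CPM (log2 2.43, 2.22 to 2.65), with 3.42 and 2.17 in the barcode sets. Both genes were thus several-fold higher in the Slc17a8 class in each set. Cacng4, whose product escorts AMPA receptors, was at 56.6 against 19.2 CPM (log2 1.56, 1.45 to 1.67). Cacna1g, a T-type pore, was at 3.68 against 1.31 CPM (log2 1.49, 1.07 to 1.91). Trpc5 was at 4.25 against 2.07 CPM, and its log2 ratio of 1.04 (0.69 to 1.40) reached 2-fold in barcode set 2 (1.24) but not in set 1 (0.48). In the cells of both classes with 40000 UMIs or more, which leaves out 100 Slc17a8 and 75 Gad2 cells, it was at 2.69 against 1.96 CPM and no longer past 2-fold (log2 0.46).

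The T-type pore Cacna1i and the sodium pore Scn7a went the other way. Scn7a, a sodium-sensing channel that lacks the usual voltage gating, was at 25.9 CPM (24.5 to 27.3) in Gad2 cells and at 6.01 CPM (5.29 to 6.80) in Slc17a8 cells (log2 -2.11, -2.30 to -1.91). Cacna1i was at 15.6 against 6.91 CPM (log2 -1.18, -1.37 to -0.98). Cells with both markers were intermediate for Scn7a (9.42 CPM), Cacna2d3 (10.9 CPM), Cacng4 (37.4 CPM) and Cacng5 (17.6 CPM), whereas their Cacna1i level of 18.7 CPM was above that of either class. After thinning each cell to 20000 UMIs, Cacng5 was seen in 27.9% of Slc17a8 cells (24.5 to 31.4) and in 3.47% of Gad2 cells (2.35 to 4.92). Without thinning the shares were 49.0% and 7.91%.

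Since Cacng5 and Cacna2d3 were higher in the Slc17a8 class and Scn7a in the Gad2 class, the promoters of these genes are shown, from 250 bases before to 50 after the RefSeq start on GRCm38.p6, each on the minus strand and read 5′ to 3′. Capitals mark CACCTG, an E-box, on either strand. The core CCGGAA, to which the ETS factor Pet1 (Fev) can bind, was searched on both strands and none of the 3 holds it. Cacng5 has a second RefSeq start, not shown.
Cacng5, chr11:107915006-107915305: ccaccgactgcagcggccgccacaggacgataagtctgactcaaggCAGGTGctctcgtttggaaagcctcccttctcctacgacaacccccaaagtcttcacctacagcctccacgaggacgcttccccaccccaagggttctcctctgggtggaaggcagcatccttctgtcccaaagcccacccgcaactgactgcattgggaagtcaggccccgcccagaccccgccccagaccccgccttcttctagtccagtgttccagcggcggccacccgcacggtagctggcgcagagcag
Cacna2d3, chr14:29721815-29722114: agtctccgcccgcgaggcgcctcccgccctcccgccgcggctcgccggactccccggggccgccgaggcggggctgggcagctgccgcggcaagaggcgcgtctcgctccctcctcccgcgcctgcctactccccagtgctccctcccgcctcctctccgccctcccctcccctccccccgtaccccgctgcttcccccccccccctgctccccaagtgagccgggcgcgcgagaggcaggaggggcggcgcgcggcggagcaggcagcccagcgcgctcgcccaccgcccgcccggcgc
Scn7a, chr2:66784861-66785160: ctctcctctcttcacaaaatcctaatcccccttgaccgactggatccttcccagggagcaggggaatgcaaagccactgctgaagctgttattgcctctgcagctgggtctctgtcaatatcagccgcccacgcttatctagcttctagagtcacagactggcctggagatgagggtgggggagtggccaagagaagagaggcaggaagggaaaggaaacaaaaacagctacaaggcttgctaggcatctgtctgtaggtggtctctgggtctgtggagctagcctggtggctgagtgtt
Over 32851 promoters of this length, 14.9% held CCGGAA and 20.2% held CACCTG. Of the 54 promoters of 40 members with an entry, 2 held CCGGAA (3.70%) and 16 held CACCTG (29.6%), and their median GC content was 59.5% against 52.7% for all promoters. These matches are a description of letters in this window. In the genome Cacng5 lies on chromosome 11 (GRCm38, 107874605 to 107915055) beside Cacng4 and Cacng1, within 211.8 kb, and Scn7a closes a row of 5 sodium pore genes on chromosome 2 (65457118 to 66784914) with Scn3a, Scn2a1, Scn1a and Scn9a. Among these neighbours, Cacng5 and Cacng4 were both at least 2-fold higher in Slc17a8 cells, and Scn7a alone of its row was past 2-fold in this comparison.

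**Figure D2:**
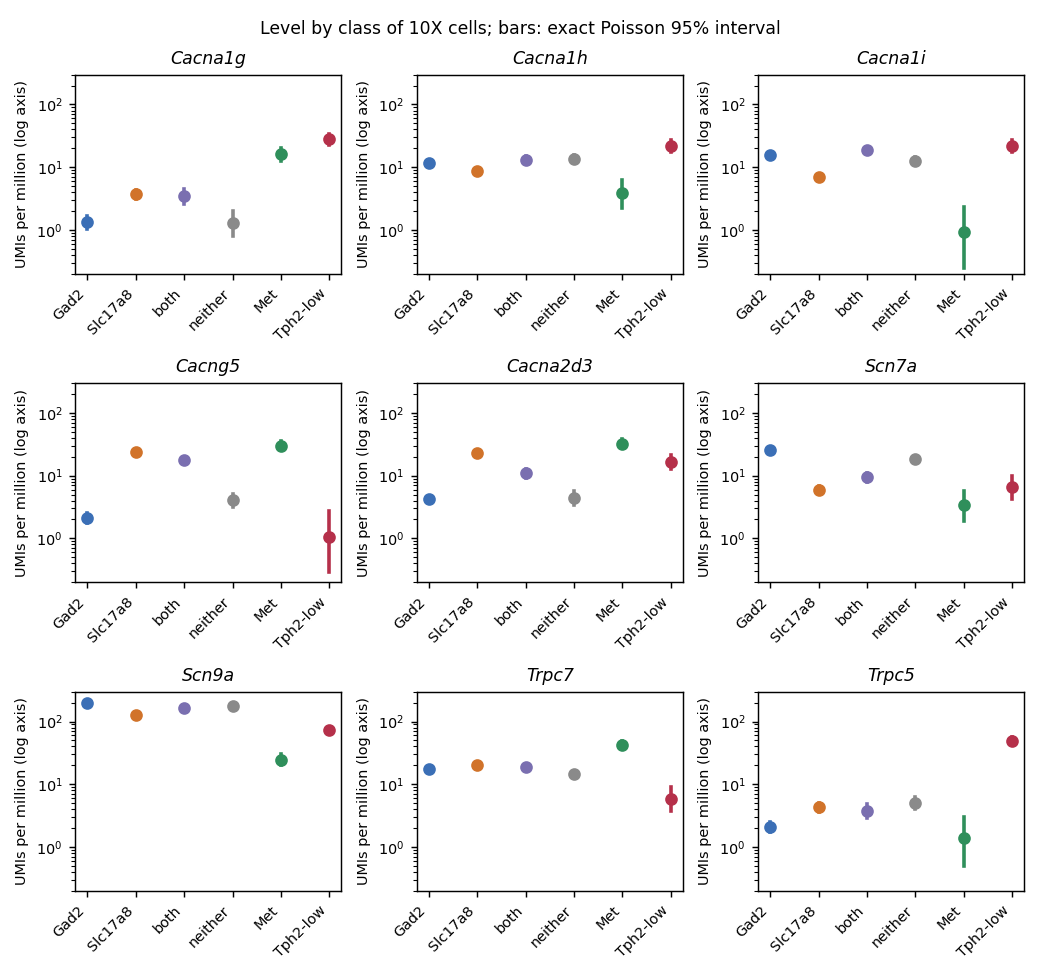
Level of 9 members in the 6 classes of 10X cells, in CPM of UMIs on a log axis shared by all panels, with exact Poisson 95% intervals. Cacng5 is at 23.8 and 30.2 CPM in Slc17a8 and Met cells and at 1.06 CPM in Tph2-low cells, and Trpc5 at 49.5 CPM in Tph2-low cells and between 1.37 and 5.07 CPM elsewhere.

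The same genes followed the number of Slc17a8 UMIs across the Gad2, Slc17a8, both and neither cells. With 0, 1 to 2, 3 to 9, 10 to 29 and 30 or more Slc17a8 UMIs (850, 336, 302, 438 and 200 cells), Cacng5 stood at 2.32, 3.19, 7.17, 21.7 and 39.7 CPM. Cacna2d3 stood at 3.77, 5.52, 9.72, 20.8 and 28.2 CPM over the same bins. Scn7a ran the other way, at 25.0, 22.2, 8.69, 7.32 and 4.32 CPM. Hcn2 stayed between 22.3 and 24.2 CPM. Trpc5 did not follow the order of the bins, with its highest level, 9.30 CPM (7.88 to 10.9), at 3 to 9 UMIs. The bins are built from the marker that also defines the classes and are a description only.

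Within the Slc17a8 class the channels varied together only in places. Over 528 pairs of members seen in at least 20% of its cells, Pearson's r of the thinned log counts in 678 cells had a median of 0.01, and 1 pair passed 0.3 in size. Cacna2d3 with Cacng5 had an r of 0.23. In Gad2 cells (864 cells, 561 pairs) 0 pairs passed 0.3. The cells share a library and sparse counts, and these values are descriptions.

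Hcn2, Hcn3 and Hcn4 were not past 2-fold between Slc17a8 and Gad2 cells. Hcn2 lay between 19.0 and 35.7 CPM over the 6 classes and Hcn3 between 28.5 and 37.0 CPM, with log2 ratios of -0.10 (-0.23 to 0.02) and -0.02 (-0.12 to 0.08) in this comparison. Hcn4 was at 0.88 CPM in Gad2 and 1.64 CPM in Slc17a8 cells (log2 0.89, 0.34 to 1.46) and at 3.99 CPM (2.24 to 6.59) in Tph2-low cells.

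Cells with neither marker were compared with Gad2 cells next. Of 42 members, 1 was at least 2-fold higher, beside 0.573% of all genes, and 0 were lower, beside 0.211% of all genes. The exception was Trpc5, at 5.07 CPM (4.01 to 6.32) against 2.07 CPM (1.70 to 2.49), a log2 ratio of 1.30 (0.86 to 1.73). It did not reach 2-fold in barcode set 1 (0.89), where the levels were 3.61 and 1.95 CPM, and did in set 2 (1.59). In cells of 40000 UMIs or more the ratio was under 2-fold (log2 0.71), and 0 members were past it, beside 0.409% of all genes higher and 0.213% lower. The other 41 members lay between -0.65 and 0.99 on the log2 scale.

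Met cells were set against the Slc17a8 cells, with which nearly all of them share Slc17a8. Of 43 members, 3 were at least 2-fold higher, beside 2.71% of all genes, and 9 were at least 2-fold lower, beside 7.59% of all genes. The shares of the members are 6.98% and 20.9%. The median log2 ratio was -0.19 over the members and 0.07 over all genes. The 12 kept their direction in barcode set 2 and 11 of them in set 1, where Cacna1i had no UMI in Met cells. Met cells are shallower, with a median of 46273 against 63265.5 UMIs.

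Cacna1g and Trpc7 were among the higher members. Cacna1g was at 16.2 CPM (12.7 to 20.5) against 3.68 CPM (log2 2.14, 1.71 to 2.55). Trpc7, a channel opened by diacylglycerol, was at 42.1 against 20.2 CPM (log2 1.06, 0.82 to 1.29), and did not reach 2-fold under either alternative scaling.

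The 9 lower members spanned calcium pores, sodium subunits and TRP channels. Scn9a, a sodium pore best known from pain-sensing neurons, was at 24.7 CPM (20.2 to 29.8) in Met cells and at 127 CPM (124 to 131) in Slc17a8 cells (log2 -2.37, -2.66 to -2.09). Cacng3, an AMPA receptor escort, was at 16.2 against 77.0 CPM (log2 -2.25, -2.61 to -1.91). Cacna1e was at 54.4 against 163 CPM (log2 -1.58, -1.78 to -1.40). These are abundant genes, and their intervals lie wholly beyond 2-fold. Trpm4 was at 5.49 against 20.4 CPM (log2 -1.89), Scn3b at 56.5 against 122 CPM (log2 -1.12) and Cacna1h at 3.89 against 8.62 CPM (log2 -1.15). Cacna1i was at 0.91 CPM, from 4 UMIs, against 6.91 CPM (log2 -2.92, -4.80 to -1.55). Trpc5 (1.37 against 4.25 CPM; log2 -1.63, -3.10 to -0.48) and Trpm3 (0.69 against 2.35 CPM; log2 -1.78, -4.08 to -0.19) rest on few UMIs in Met cells and have wide intervals. In cells of 40000 UMIs or more, Trpc5 was at 1.32 CPM from 5 UMIs against 2.69 CPM (log2 -1.03), and Cacna1h (-0.97) and Trpc7 (0.96) were no longer past 2-fold. Trpm3 (-1.50) then had fewer than 100 UMIs and was not counted.

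The make-up of 2 families thus differed in Met cells. Of the T-type pore UMIs, Cacna1g made up 77.2% (67.2 to 85.3) in Met cells, against 19.2% (16.5 to 22.0) in Slc17a8 and 4.58% (3.59 to 5.76) in Gad2 cells. Cacna1i made up 4.35% (1.20 to 10.8) in Met cells, against 36.0% in Slc17a8 and 54.4% in Gad2 cells. Cacna1h, the remaining T-type pore, held 18.5%, 44.9% and 41.0%. Of the TRPC UMIs in Met cells, Trpc7 made up 45.4% (40.5 to 50.4) and Trpc1 27.7%, whereas in Slc17a8 cells Trpc7 made up 33.9% (32.1 to 35.8) and Trpc1 51.4%. The summed level of the T-type pores was similar in Met and Slc17a8 cells, at 21.0 and 19.2 CPM, and higher in Gad2 cells, at 28.7 CPM.

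**Figure D3:**
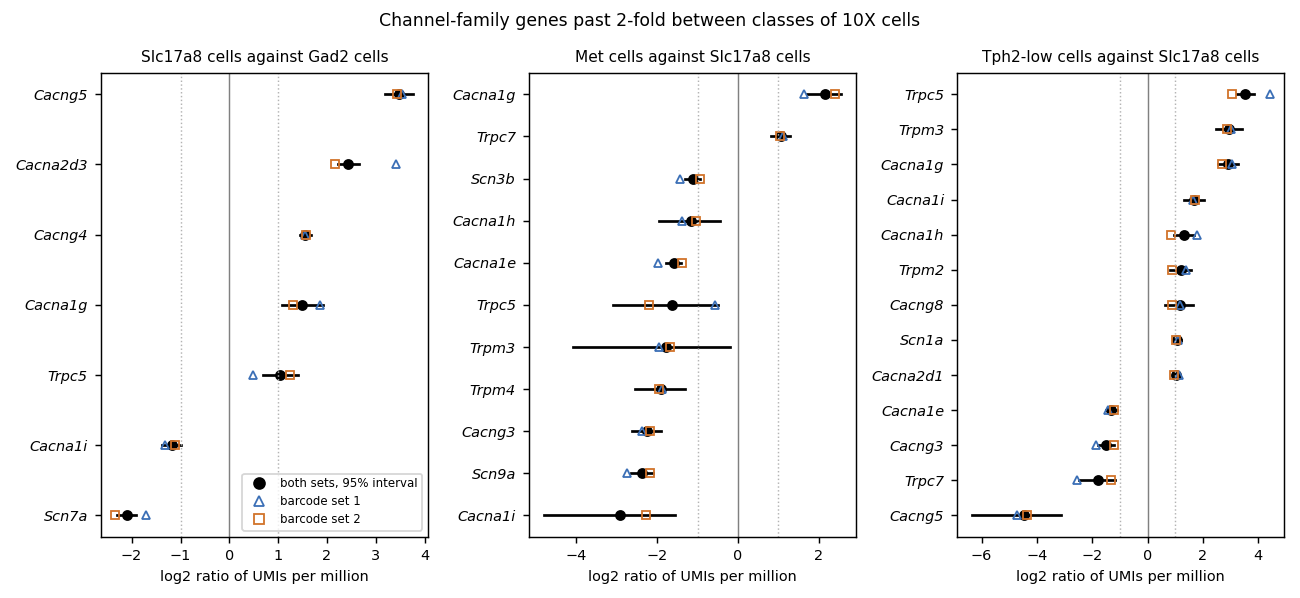
Members past 2-fold in 3 comparisons of 10X classes. The horizontal axis is the log2 ratio of CPM, filled circles with bars give the pooled ratio and its 95% interval, triangles and squares the barcode sets, and dotted lines mark 2-fold. Cacng5 lies at 3.47 in the first panel and at -4.48 in the last, and Cacna1g at 2.14 in the middle one.

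Among the comparisons of 10X classes, at the main settings, the most members past 2-fold were found in Tph2-low cells. Of 43 members compared with Slc17a8 cells, 10 were at least 2-fold higher, beside 7.80% of all genes, and 5 were at least 2-fold lower, beside 4.23% of all genes. The shares of the members are 23.3% and 11.6%. The median log2 ratio was 0.16 over members and 0.19 over all genes, and all 15 kept their direction in each barcode set.

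Several features moved with this class. Tph2-low cells had a median of 27329 UMIs against 63265.5. The activity and dissociation list (7 of 7 genes, among them Fos and Jun) summed to 854 CPM in Tph2-low cells and to between 233 and 266 CPM in the other classes. Oligodendrocyte markers (4 of 5 in the table) summed to 70.3 CPM, against 28.4 CPM in Slc17a8 and 42.1 CPM in Met cells, and their part in the results was not tested. The median ratio of all genes was -0.03 or -0.05 instead of 0.19 once classes were scaled by the median of ratios or by TMM, and either scaling gave 6 members higher and 6 lower, without Cacna2d1, Scn1a, Trpm2 and Cacng8 among the higher and with Scn9a among the lower. All genes then split into 4.97% higher and 6.00% lower by the median of ratios, and 4.79% and 6.25% by TMM.

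TRP channels and T-type pores led the higher group, in size of the ratio. Trpc5, a receptor-operated cation channel, was at 49.5 CPM (42.7 to 57.2) in Tph2-low cells and at 4.25 CPM in Slc17a8 cells, a log2 ratio of 3.54 (3.24 to 3.85), or 11.6-fold, with 4.41 and 3.07 in the barcode sets. After thinning it was seen in 55.0% of Tph2-low cells (45.7 to 64.1) and in 7.96% of Slc17a8 cells (6.04 to 10.3). It made up 45.6% (40.7 to 50.6) of the TRPC UMIs there, against 7.15% in Slc17a8 cells. Its promoter, chosen because Trpc5 has the largest ratio among the higher members, holds neither CCGGAA nor CACCTG. It is shown with the same limits, build and strand as the promoters above.
Trpc5, chrX:144688131-144688430: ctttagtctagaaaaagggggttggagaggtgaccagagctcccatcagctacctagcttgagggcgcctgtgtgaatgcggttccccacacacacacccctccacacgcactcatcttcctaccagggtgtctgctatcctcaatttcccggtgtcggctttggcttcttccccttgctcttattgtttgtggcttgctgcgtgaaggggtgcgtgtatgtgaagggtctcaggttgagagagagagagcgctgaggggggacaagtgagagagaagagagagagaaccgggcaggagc
Trpm3, a channel opened by heat and steroids, was at 18.1 against 2.35 CPM (log2 2.94, 2.48 to 3.40), while exons of Gm27151 and C330002G04Rik lie over its own on the other strand. Trpm2, opened by oxidant stress, was at 18.1 against 7.88 CPM (log2 1.20), while Gm22394 and Gm22871 overlap its exons on the same strand. Trpc4 and Trpc6, named after their values were seen and under the limit of 100 UMIs, were at 10.1 CPM (7.16 to 13.9) and 3.99 CPM (2.24 to 6.59) in Tph2-low cells and at 0.62 and 0.24 CPM in Slc17a8 cells.

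All T-type pores were higher in Tph2-low cells. Cacna1g was at 27.7 CPM (22.6 to 33.5) against 3.68 CPM (log2 2.91, 2.54 to 3.28). Cacna1i was at 22.1 against 6.91 CPM (log2 1.68, 1.31 to 2.03), and Cacna1h at 21.6 against 8.62 CPM (log2 1.32, 0.96 to 1.67). Together the T-type pores reached 71.3 CPM, against 19.2 CPM in Slc17a8 and 28.7 CPM in Gad2 cells, and the 3 genes held near-equal shares of 38.8, 30.2 and 31.0%. The sodium pore Scn1a was at 165 against 77.9 CPM (log2 1.08). Cacna2d1 was at 616 against 305 CPM (log2 1.02), and Cacng8 at 10.4 against 4.65 CPM (log2 1.16, 0.62 to 1.66). Gm23450 overlaps exons of Cacng8 on the same strand.

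The lower members of Tph2-low cells were led by the gene with the largest ratio of Slc17a8 to Gad2 cells. Cacng5 had 4 UMIs in the 131 cells, or 1.06 CPM (0.29 to 2.73), against 23.8 CPM (log2 -4.48, -6.36 to -3.12). This held although 121 of these cells carried at least 3 Slc17a8 UMIs, and in those 121 cells it was at 1.18 CPM. Trpc7 was at 5.86 against 20.2 CPM (log2 -1.79, -2.47 to -1.18) and Cacng3 at 27.4 against 77.0 CPM (log2 -1.49, -1.79 to -1.21). For Cacng3 the 10 cells with under 3 Slc17a8 UMIs held 50 of the 103 UMIs, at 142 CPM, and the other 121 cells were at 15.6 CPM (11.7 to 20.4). Cacna1e was at 66.0 against 163 CPM (log2 -1.31). Cacna2d3, by contrast, was at 16.8 CPM (12.9 to 21.5) and not past 2-fold, so the pair with parallel levels across Slc17a8 bins differed here.

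The levels were also read over bins of Tph2. From under 100, 100 to 500, 500 to 1000, 1000 to 2000, 2000 to 4000 to at least 4000 CPM of Tph2 (57, 74, 66, 419, 1351 and 290 cells outside the Met class), Trpc5 stood at 59.2, 42.6, 26.0, 8.13, 2.07 and 0.94 CPM. Cacna1g stood at 38.8, 19.7, 7.30, 2.21, 2.25 and 2.46 CPM, level from 1000 CPM of Tph2 upward. Cacng3 ran the other way, from 15.3 CPM in the lowest bin over 36.1, 56.8 and 90.2 CPM to 101 and 103 CPM, as did Scn9a, from 54.7 CPM to between 153 and 171 CPM in the 3 highest bins. The bins mix Gad2 and Slc17a8 cells, whereas 121 of the 131 Tph2-low cells were Slc17a8-positive. Scn9a was at 57.3 CPM in those 121 cells and at 219 CPM in the other 10. Marker make-up and Tph2 level cannot be told apart here.

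Depth is graded with Tph2, so the bins were formed again in the 418 cells with fewer than 40000 UMIs. With under 500, 500 to 1000, 1000 to 2000 and at least 2000 CPM of Tph2, Trpc5 was at 51.0, 38.4, 20.9 and 4.00 CPM, and the intervals of the last 2 bins (16.1 to 26.8 and 2.37 to 6.32) did not overlap. Cacna1g was at 28.7, 7.97, 2.33 and 3.33 CPM. Within these shallow cells Trpc5 was lower in each higher Tph2 bin, and Cacna1g was highest in the lowest bin. Depth was not matched between the bins of this subset, and its part was not tested. As Tph2 also defines the Tph2-low class, the bins are a description only. Set against the 100 Slc17a8 cells under 40000 UMIs alone, whose median Tph2 was 1768 CPM and whose Trpc5 was at 23.5 CPM against 2.69 CPM in the other Slc17a8 cells, all 15 members kept their direction and 4 of them, among 36 members with at least 100 UMIs, were past 2-fold, beside 2.75% of all genes higher and 1.58% lower. They included Cacna1g (log2 1.74), Trpc5 (1.07) and Cacng3 (-1.14). Cacng5 (-3.47), Trpm3 (2.25), Trpc7 (-1.78) and Trpm2 (1.13) reached 2-fold on fewer than 100 UMIs.

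**Figure D4:**
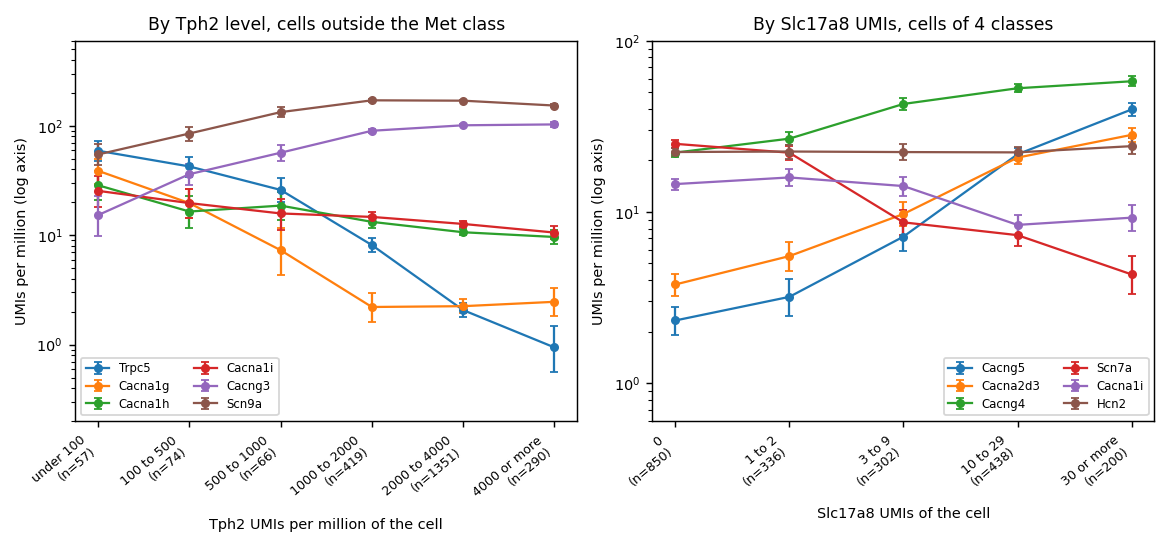
Level of members in CPM on a log axis, by the Tph2 level of the cell (left, cells outside the Met class) and by its Slc17a8 UMIs (right, 4 classes), with 95% intervals and the number of cells per bin. On the left Trpc5 runs from 59.2 to 0.94 CPM and Cacng3 from 15.3 to 103 CPM, and on the right Cacng5 runs from 2.32 to 39.7 CPM while Hcn2 stays between 22.3 and 24.2 CPM.

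Single Tph2-low cells held these channels in different combinations. Of the 131 cells, 75 had a Trpc5 UMI, 67 a Cacna1g UMI, 65 a Cacna1i UMI, 59 a Cacna1h UMI and 43 a Trpm3 UMI. Trpc5 and Cacna1g occurred together in 42 cells, which are 56.0% of the Trpc5 cells and 62.7% of the Cacna1g cells. Trpc4, again named after its values were seen, was found in 26 cells, of which 20 (76.9%) also had Trpc5. Over 120 thinned cells, 13 of 630 pairs of members passed an r of 0.3 in size. Among them, the sodium channel pairs Scn1a with Scn8a (r = 0.48) and Scn8a with Scn2b (0.47) were largest. The sodium pores Scn8a and Scn9a went opposite ways (-0.34).

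Genes that act with these channels were read from a list of 38 partners (intracellular calcium release channels, Kcnip calcium sensors, Stac proteins and others), of which 37 were in the table. In Slc17a8 against Gad2 cells 31 were compared, 1 was at least 2-fold higher and 3 were lower, beside 2.95% and 3.02% of all genes. Kcnip1, a calcium sensor, was at 9.26 against 1.61 CPM (log2 2.52), and Stac, whose protein binds L-type pores, at 2.87 against 11.4 CPM (log2 -1.99). In Met against Slc17a8 cells 30 were compared, and 7 were higher and 5 lower, beside 2.71% and 7.59% of all genes. The higher ones included the ryanodine receptors Ryr2 (128 against 25.0 CPM; log2 2.35) and Ryr3 (32.0 against 5.44 CPM; log2 2.56), which release calcium from internal stores. In Tph2-low against Slc17a8 cells 29 were compared, and 4 were higher and 1 lower, beside 7.80% and 4.23% of all genes. Kcnip4 was at 79.3 against 7.41 CPM (log2 3.42). In cells with neither marker against Gad2 cells 31 were compared, and 1 was higher and 1 lower, beside 0.573% and 0.211% of all genes.

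The manual cells give the same genes by subdomain and Cre driver. All 70 had Tph2 reads, the lowest at 2720 CPM and group medians from 6676 to 11385 CPM. P2ry1 is the driver of the caudal group in which Met reads were found in 9 of 10 cells. Against the caudal Sert cells, 5 of 40 members were at least 2-fold higher by mean CPM, beside 17.7% of all genes, and 13 were at least 2-fold lower, beside 20.2% of all genes. For 2 members the cells of both groups did not overlap, beside 1.05% of all genes. Of the 12 members past 2-fold in the 10X Met comparison, 9 had a mean of at least 5 CPM in 1 of these groups, and all 9 went the same way, 6 of them (66.7%) past 2-fold, one of which, Cacna1g, was lower by median. Of all genes past 2-fold in that 10X comparison and read in these groups (812), 87.1% went the same way and 72.5% were past 2-fold, so the members' shares are near those of all genes.

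Scn9a was at 0 in 7 of 10 P2ry1 cells, with a highest value of 39.7 CPM, whereas every cell of the other 7 groups had reads, with group medians from 97.8 to 211 CPM. A caudal Sert cell, at 26.0 CPM, lay below that highest P2ry1 value, so the 2 caudal groups overlapped for Scn9a. Exons of Gm13629 lie over those of Scn9a on the other strand, and the manual reads carry no strand. Among members named below, exons on the other strand also lie over Cacna1h (Tpsg1), Cacna1d (Chdh) and Hcn3 (Pklr).

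Further members differed in the P2ry1 cells. Cacna1e was at 0, 15.7 and 72.9 CPM (lowest, median, highest) against 20.4, 143 and 200.1 CPM in caudal Sert cells, with overlap. Cacna2d3 was at 1.89, 106 and 191 CPM against 1.40, 16.1 and 93.8 CPM. Scn2a1 was at 137, 209 and 523 CPM against 80.7, 117 and 127 CPM without overlap, and its mean ratio was under 2-fold without the cell of lowest total in each group. Cacna1h was at 0 in all 10 P2ry1 cells, which allows up to 0.75 CPM in the shallowest, and at a mean of 20.3 CPM in caudal Sert cells. Cacna1g, higher by mean (40.9 against 17.7 CPM), was lower by median (2.16 against 12.8 CPM), with P2ry1 values from 0 to 257 CPM. Scn7a was also at 0 in all 10 P2ry1 cells, and its mean of 5.94 CPM in caudal Sert cells came from 1 of 6 cells, at 35.6 CPM. Among the other lower members with reads in both groups, Trpm2 (log2 -6.63) and Cacna1d (log2 -4.10) had the lowest ratios of mean CPM, together with Cacng8 (log2 -5.33), whose mean was under 5 CPM in both groups without the cells of lowest total.

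**Figure D5:**
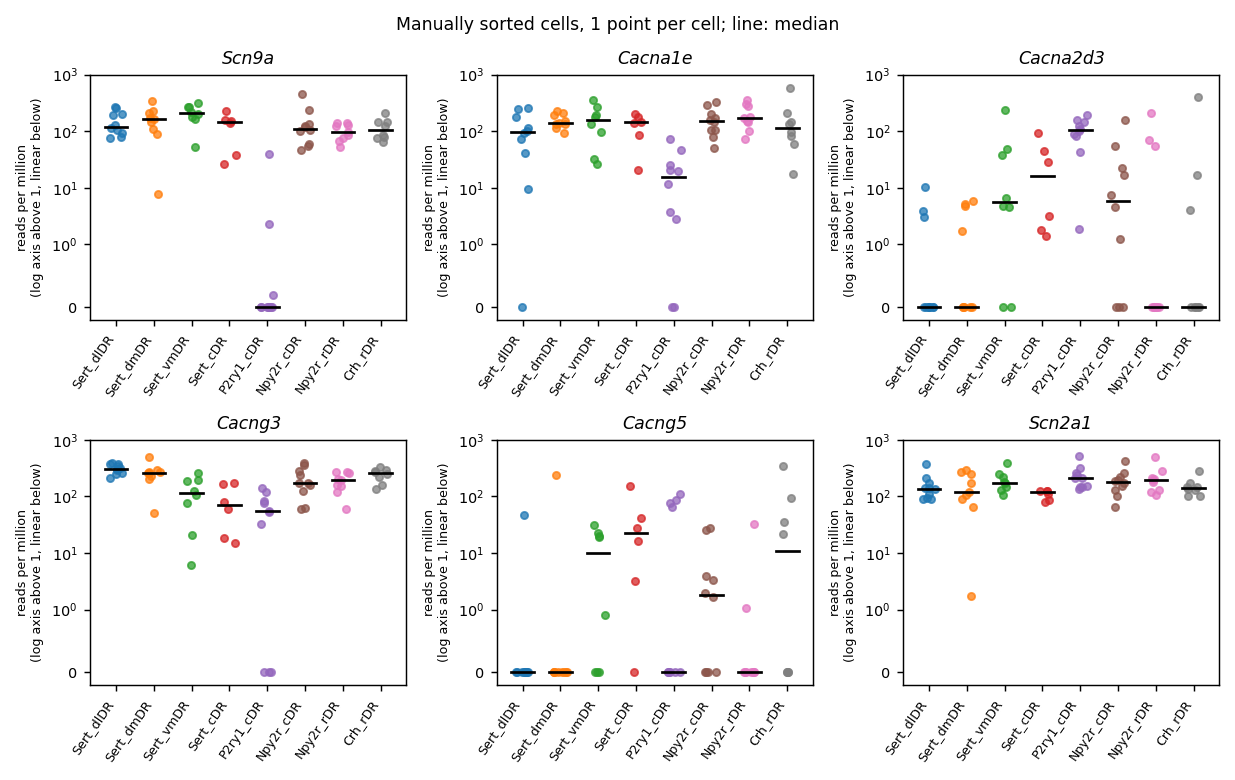
Level of 6 members in each manually sorted cell, by group, in CPM on an axis that is logarithmic above 1 and linear below. Each point is 1 cell and lines are medians. Of the 10 P2ry1 cells, 7 lie at 0 for Scn9a, and all lie between 137 and 523 CPM for Scn2a1.

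Within the Sert driver, the caudal cells were compared with the dorsolateral ones. Of 42 members, 15 were at least 2-fold higher in caudal cells, beside 19.8% of all genes, and 5 were at least 2-fold lower, beside 15.9% of all genes. As shares these are 35.7% and 11.9% of the members. For 1 member the groups did not overlap, beside 0.879% of all genes: Cacng3 was at 208, 309.8 and 388 CPM in dorsolateral and at 15.0, 70.4 and 175 CPM in caudal cells. Cacna2d3 had a mean of 28.9 CPM in caudal and 1.70 CPM in dorsolateral cells and Cacng5 of 40.8 and 4.76 CPM, Cacng5 with reads in 5 of 6 and 1 of 10 cells. Scn7a went the other way, at a mean of 5.94 against 20.8 CPM, with reads in 1 of 6 and 9 of 10 cells. All caudal cells came from mice of 63 days. With the 63-day dorsolateral cells alone, 18 members were past 2-fold, beside 23.6% of all genes higher and 17.2% lower, and Scn7a (log2 -0.76) was no longer among them.

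The rostral and caudal Npy2r cells, which share a driver, overlapped for every member. Of 40 members, 5 were at least 2-fold higher in caudal cells, beside 10.6% of all genes, and 7 were at least 2-fold lower, beside 13.4% of all genes. Genes without overlap made up 0.00939% of all genes, and 0 of the members. Cacna1g had reads in 1 of 10 caudal and 6 of 9 rostral cells, at means of 0.02 and 17.8 CPM. Both groups held cells of 77 days (4 caudal, 3 rostral) and of 87 days (6 each). Within 77 days 6 members were higher and 9 lower, beside 22.1% and 20.4% of all genes, and within 87 days 5 were higher and 11 lower, beside 13.7% and 17.6%. Of the 12 members past 2-fold over both ages, 8 were past it in the same direction at 77 days and 11 at 87 days.

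In the rostral DR, Crh cells were compared with Npy2r cells. Of 39 members, 6 were at least 2-fold higher, beside 11.2% of all genes, and 4 were at least 2-fold lower, beside 10.9% of all genes. The groups overlapped for all members, and 0.00937% of all genes showed no overlap. Cacng5 had a mean of 61.2 against 3.80 CPM and Scn7a of 25.1 against 1.79 CPM. Both had reads in more of the Crh cells (4 and 5 of 8) than of the Npy2r cells (2 of 9 each), and single Crh cells reached 340.4 and 138 CPM and weigh on the means.

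Hcn3 was widely seen in manual cells, with reads in at least 6 cells of each group and group medians from 11.9 (P2ry1) to 95.1 CPM (caudal Sert). Hcn2 medians ran from 4.90 CPM in P2ry1 to 26.0 CPM in caudal Sert cells. Caudal Sert cells had a higher mean of Hcn2 than dorsolateral ones (22.5 against 8.44 CPM; log2 1.41). Hcn4 had reads in 0 to 3 cells of each group. Trpc5, the leading gene of the Tph2-low class, had reads in 4 of the 70 manual cells, at most 14.4 CPM, and could not be compared there.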

How the data were processed

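Sorted mouse Pet1 neurons were measured as 10X 3′ libraries and as manually sorted single cells made with SMART-Seq v4, which does not mark strand. Per the labels and the study's methods, the authors deposited a filtered table of UMI counts (2350 cells, mm10, Cell Ranger 3.0.2) and a table of read counts per gene for the manual cells (STAR 2.5.4; R 3.5.3 is also in the submitters' processing notes). Before deposit the authors had removed rarely detected genes, and cells poor in genes, with glial markers, little Fev, much mitochondrial or little ribosomal RNA, or outlying totals. A gene or cell missing for these reasons is not analysed here. All columns were used (0 were left out), and the counts were taken as deposited, with the symbol Scn2a1 for Scn2a.

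The 10X cells were classed in the order Met (at least 3 UMIs), Tph2-low (under 500 CPM of Tph2), both, Slc17a8, Gad2 (3 UMIs each) and neither. UMI counts were summed per class and divided by the class total to give CPM, with exact Poisson intervals, exact conditional intervals for ratios and Clopper-Pearson intervals for shares, all at 95%. They cover counting error only, since libraries and animals are not replicated, and a count of 0 allows up to 3 counts of the total. A ratio was read where a gene had at least 100 UMIs in both classes together, or in manual cells a group mean of at least 5 CPM, and was called past 2-fold. Shares of cells were also taken after thinning each cell to 20000 UMIs, which left out 53 cells, and 673 cells changed class when classed again after thinning. Scrublet, at an assumed rate of 5%, called 10 doublets, which were kept in the main values. Because a count model needs replicate samples, none was fitted. edgeR 4.0.16 in R 4.3.3 served for TMM scaling only. Python 3.11.15, numpy 2.4.6, scipy 1.17.1, pandas 2.3.3, scanpy 1.11.5 and matplotlib 3.10.9 were used. The computation was tested on simulated data. Members past 2-fold in any 10X comparison, the 3 highest of each family, the HCN genes and members without overlap in manual cells are named, and others by counts or as stated; some members are counted and not reported by name. Promoters came from RefSeq (GRCm38.p6, 250 bases before to 50 after the start) and gene places from GENCODE M21. The members, lists, limits and comparisons were chosen with earlier results of these data known. Alternatives were other class limits (1 or 5 UMIs, and a lower and a higher Tph2 limit), thinning, other scalings, the mean of cells, no doublets, no filter, each barcode set alone, and in manual cells medians, no filter and leaving out the cell of lowest total.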

Additional observations from a re-analysis of the deposited data

Results flagged for a closer look

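In the manual groups, 86 sets of 6 to 10 values on the log2(CPM + 1) scale were read for a cell far from the rest of its group, and 14 were found. The limit flags about 1 in 20 sets of normally distributed values. Single-cell counts with values of 0 are not normal, so the 14 are not read as an excess. Replicate 4 of the dorsomedial Sert cells was lowest for 4 members, with Scn2a1 at 1.77 CPM, Scn9a at 7.69 CPM, Cacng3 at 50.6 CPM and Hcn3 at 0 CPM, and its Tph2 level of 3442 CPM was also the lowest of its group. Replicate 10 of the caudal Npy2r cells was lowest for Cacng4 at 0.19 CPM and Scn3b at 0.38 CPM, with Tph2 at 3073 CPM. Replicate 4 of the dorsolateral Sert cells was lowest for Scn3b at 8.63 CPM and Trpm4 at 0 CPM. Single low values were found for Trpm4 in dorsomedial Sert replicate 6 (0 CPM), Trpc7 in caudal Npy2r replicate 7 (0 CPM), Scn9a in ventromedial Sert replicate 2 (53.2 CPM), Cacna1e in caudal Sert replicate 4 (20.4 CPM) and Cacna2d3 in P2ry1 replicate 2 (1.89 CPM). The only high value was Cacng4 in ventromedial Sert replicate 8 (177 CPM).

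The manual table also holds 14 matching symbols that are not among the members. Among those that reached 5 CPM in some cell, the highest cells were at 71.6 CPM for Trpv1 and 23.1 CPM for Cacng6 in dorsomedial Sert, 19.4 CPM for Trpv6 in dorsolateral Sert, 12.7 CPM for Trpv5 in Crh, 8.67 CPM for Scn11a in caudal Npy2r and 5.26 CPM for Cacna1f in caudal Sert cells.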

How the results depend on the processing

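Of 81 recomputed counts of members, 69 stayed within 1.5 times the value given in the report. Slc17a8 against Gad2 cells gave 12 members past 2-fold without a filter on UMIs (7 with it) and 5 to 12 over all alternatives. Trpc5 was not among them at a class limit of 5 UMIs, with Tph2-low cells set at under 1000 CPM, in barcode set 1 alone or in cells of 40000 UMIs or more. Met against Slc17a8 cells gave 7 both at a class limit of 1 UMI and after thinning, where Cacna1g no longer had 100 UMIs. Tph2-low against Slc17a8 cells gave 9 with a limit of 1000 CPM of Tph2 and 4 against Slc17a8 cells under 40000 UMIs, an alternative chosen after seeing the data, as were the cells under 500 CPM of the activity list (13) the 63-day Sert cells (18), the cells of 40000 UMIs or more and the Npy2r cells of each age. Cells with neither against Gad2 cells gave 2 at a limit of 1 UMI, 2 at 1000 CPM of Tph2, 3 without the filter, 0 in barcode set 1 alone, 3 in set 2 alone and 0 in cells of 40000 UMIs or more. In manual cells, Crh against Npy2r cells gave 16 without the filter (10 with it). By medians over cells, Cacna1g in P2ry1 against caudal Sert cells reversed to a log2 ratio of -2.57, and Cacna1d in Crh against rostral Npy2r cells to 0.34. Without the cell of lowest total in each group, P2ry1 against caudal Sert cells gave 17, without Cacna1g, Scn1a, Scn2a1 and Scn8a by their ratio and Cacng8 by its level. Among the values of single members 720 moved by less than their limit, 86 moved by more and 2 reversed, and the cause was not tested. The limit was the interval of the main ratio for 10X values and the spread between single cells for manual ones. That spread is wider than an error of the mean, so manual values could move far and stay within it. No paired analysis was possible because the manual replicate numbers name single cells and the 10X columns carry none. Ages could be matched instead: caudal against rostral Npy2r cells gave 15 members past 2-fold at 77 days and 16 at 87 days (12 over both ages). At 1 sample a group, depth limits the Met and Tph2-low values most, where 3 UMIs are 0.69 and 0.80 CPM.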

Other observations

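The barcode sets of the 10X table differed for Cacng7, a gamma subunit named here after its values were seen. It was at 42.3 CPM in set 1 and 14.7 CPM in set 2, a log2 ratio of 1.53 (1.42 to 1.63), higher than for 99.8% of the genes compared. The difference was present within Gad2 cells (43.0 against 15.8 CPM) and Slc17a8 cells (38.7 against 13.6 CPM). Of 12901 genes, 1.44% differed 2-fold between the sets. The labels do not say which runs or genotypes the sets hold. Cacna2d3 was at 8.77 CPM in set 1 and 13.9 CPM in set 2. Within Gad2 cells it was at 1.73 against 5.54 CPM (log2 -1.68, -2.26 to -1.13). Within Slc17a8 cells it was at 18.6 against 25.0 CPM.

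Summed over families, the levels of the beta subunits of calcium channels were nearest to each other across the 6 classes, at 228 to 244 CPM. Alpha2delta subunits summed to between 385 CPM in Slc17a8 and 729.7 CPM in Tph2-low cells. The summed high-voltage calcium pores were lowest in Tph2-low cells, at 336 CPM, and highest in cells with both markers, at 552 CPM.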
